A study of Homo sapiens with 8 samples.

Results

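Mirtrons are microRNAs (miRNAs, small RNAs that guide the silencing of messenger RNAs with matching sites) made by splicing. A short intron is cut out of a messenger RNA precursor, its lariat is opened, and the freed intron folds into a hairpin that Dicer cuts, without the cut by Drosha and DGCR8 that most miRNA precursors need. The 5p arm of such a hairpin therefore starts at the 5′ splice site of the intron and the 3p arm ends at its 3′ splice site. The classical human mirtrons taken here are miR-877, miR-1224, miR-1225, miR-1226, miR-1227, miR-1229 and miR-1236, chosen by name. The 9 mature entries named for these 7 hairpins were all present among the 2026 entries of the count table.

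Small RNA was sequenced from HCT116, an established human colorectal cancer cell line. Spheroids were raised without serum, with basic fibroblast growth factor and epidermal growth factor, and live cells from them were sorted by CD44v6, a variant of the adhesion receptor CD44 by which stem-like cells of colorectal cancer are often isolated. The comparison was of CD44v6-positive with CD44v6-negative cells of this line, with 2 samples in each group, and both groups came from spheroid culture. The 8 sequencing entries carry 4 combined identities, and the entries of an identity were counted as 1 sample. The labels do not say whether a group's samples were separate cultures, and the p-values therefore rest on a spread between samples that may be only technical.

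The CD44v6-negative samples held 7880631 and 4592278 reads and the CD44v6-positive samples 919802 and 154481, so depth differed with the group. Of the 8 miRNAs fixed as markers of intestinal epithelium, all 8 were detected in every sample, and their summed level was 33812 and 20670 CPM (reads per 1000000, scaled by the TMM method) in the CD44v6-negative samples and 17799 and 14065 CPM in the CD44v6-positive samples. The sum follows the abundant miR-200 family, whose members were not alike. miR-141-3p was at 11201 and 5342 against 1939 and 1172 CPM, and miR-200a-3p and miR-429 were also lower in CD44v6-positive cells without overlap. The groups overlapped for miR-200b-3p (6958 and 6569 against 6576 and 4952 CPM) and miR-200c-3p (9851 and 4426 against 7125 and 2203 CPM). miR-192-5p, miR-194-5p and miR-215-5p were highest in CD44v6-positive sample 2, with log2 fold changes of 0.80, 0.74 and 1.73 that did not pass the test. Neural markers, 4 in number, summed to 2533 and 2071 CPM against 1386 and 1239 CPM. Among markers of other tissues, the liver miRNA miR-122-5p was at 4.59 and 3.99 CPM in the CD44v6-negative samples and at 48.5 and 609 CPM in CD44v6-positive samples 1 and 2. The 6 blood markers summed to 163.6 and 124 CPM against 96.0 and 625 CPM, and the 7 muscle and stroma markers to 1332 and 913 CPM against 921 and 5166 CPM, so CD44v6-positive sample 2 had the highest sum for all 3. In that sample miR-143-3p gave 4968 of the 5166 CPM, miR-145-5p was lowest (179 and 197 against 100.3 and 57.3 CPM), miR-1-3p and miR-133a-3p were at 0, and miR-206 was at 0 in every sample. The 8 entries taken as signs of RNA quality, which are reported to overlap other noncoding RNA, summed to 1900 and 2648 CPM against 7249 and 6343 CPM. The part of these in the results that follow was not tested, and the values without CD44v6-positive sample 2 stand beside the results.

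The mature sequences of the 9 entries show the marks of the splice sites from which they are cut. They are printed from RefSeq (GRCh38.p14), 5′ to 3′, with the seed (bases 2 to 8, the part that pairs with targets) in capitals.
hsa-miR-877-5p: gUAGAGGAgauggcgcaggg
hsa-miR-1224-5p: gUGAGGACucgggaggugg
hsa-miR-1225-5p: gUGGGUACggcccagugggggg
hsa-miR-877-3p: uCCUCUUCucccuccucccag
hsa-miR-1224-3p: cCCCACCUccucucuccucag
hsa-miR-1226-3p: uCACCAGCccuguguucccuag
hsa-miR-1227-3p: cGUGCCACccuuuuccccag
hsa-miR-1229-3p: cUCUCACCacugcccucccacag
hsa-miR-1236-3p: cCUCUUCCccuugucucuccag
All 3 of the 5p entries start with GU, the first bases of a spliced intron, as do 5.56% of the 809 human 5p sequences of the table (read on the RNA strand only). All 6 of the 3p entries end with AG, the last bases of an intron, as do 22.6% of the 822 human 3p sequences. Since the entries were chosen as mirtrons, these ends check the label and are no finding. The entries do not form a seed family: for each of the 9, no other mature sequence in the RefSeq table had the same seed.

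The hairpins filled their host introns exactly. In GENCODE release 29 (GRCh38) all 7 hairpins start and end at the first and last base of an annotated intron on their strand, which 23 of the 1562 hairpins in the RefSeq table (1.47%) did. This is what the name mirtron implies, so it checks the label and is no finding. The 4 hairpins read most are printed here with the annotated arms in capitals.
MIR877: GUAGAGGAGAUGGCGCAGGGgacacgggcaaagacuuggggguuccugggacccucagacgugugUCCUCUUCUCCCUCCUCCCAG
MIR1224: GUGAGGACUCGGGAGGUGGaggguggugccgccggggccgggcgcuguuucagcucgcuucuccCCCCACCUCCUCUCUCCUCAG
MIR1226: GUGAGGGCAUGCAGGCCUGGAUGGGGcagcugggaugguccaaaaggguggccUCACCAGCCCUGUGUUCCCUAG
MIR1229: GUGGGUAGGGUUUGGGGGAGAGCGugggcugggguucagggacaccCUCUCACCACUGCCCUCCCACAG
MIR877 (chr6:30584332-30584417, plus strand, 86 bases) is intron 13 of 24 in the principal transcript of ABCF1, which encodes an ATP-binding cassette protein that acts in translation initiation. MIR1224 (chr3:184241405-184241489, plus strand, 85 bases) is the last intron, 18 of 18, of VWA5B2. MIR1226 (chr3:47849555-47849629, plus strand, 75 bases) is an intron of DHX30, an RNA helicase gene. MIR1229 (chr5:179798278-179798346, minus strand, 69 bases) is intron 13 of 14 of MGAT4B, a glycosyltransferase gene. The hairpins with fewer reads lie in PKD1, which encodes polycystin-1 (MIR1225, chr16:2090195-2090284, minus strand, the last intron, 45 of 45), in PLEKHJ1 (MIR1227, chr19:2234062-2234149, minus strand) and in NELFE, which encodes a subunit of the negative elongation factor of transcription (MIR1236, chr6:31956839-31956940, minus strand, intron 3 of 10).

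Mirtrons were a small part of the miRNA reads, and miR-877-5p made up most of them. The 9 entries together took 0.0165% (exact binomial 95% interval 0.0156 to 0.0175) and 0.0597% (0.0575 to 0.0619) of all reads of CD44v6-negative samples 1 and 2. In CD44v6-positive samples 1 and 2 they took 0.0874% (0.0815 to 0.0937) and 0.244% (0.220 to 0.270). miR-877-5p gave 84.0% and 84.2% of these reads in CD44v6-negative cells, and 87.3% and 90.7% in CD44v6-positive cells. Because PCR copies of a molecule are counted as reads, the intervals given for counts and shares hold counting error and nothing else. The summed level of the 9 entries was 249 and 496 CPM in the CD44v6-negative samples and 867 and 1963 CPM in the CD44v6-positive samples. No filter on low counts removes an entry from this sum, but its TMM scaling was computed on the miRNAs that passed the filter. Without miR-877-5p the sum was 39.8 and 78.6 CPM against 110 and 182 CPM. In both sums the 2 groups did not overlap, and the samples within each group differed by a larger ratio than the nearest samples of the 2 groups. Both sums also rose from sample to sample as depth fell (7880631, 4592278, 919802 and 154481 reads), within each group as well. Group and depth cannot be told apart here, and the part of depth was not tested. In sorted bulk samples, fewer cells of a type and less RNA per cell cannot be told apart.

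By mean level over the 4 samples, miR-877-5p came first at 791 ± 697 CPM (SD, n = 4), which was rank 87 of all 2026 entries, and it lay above every other mirtron in all 4 samples. The next 3 did not differ beyond their spread, with miR-877-3p at 27.1 ± 27.9, miR-1226-3p at 24.0 ± 6.36 and miR-1224-5p at 22.9 ± 10.2 CPM. They were followed by miR-1229-3p at 14.7 ± 10.8, miR-1224-3p at 9.97 ± 8.25 and miR-1227-3p at 3.58 ± 1.66 CPM, each above the one after it in all 4 samples although the spreads of neighbours overlap. Since a read covers a whole mature miRNA, these levels need no scaling by length. For miR-1225-5p there were 1 and 0 reads in CD44v6-negative cells and 1 and 0 in CD44v6-positive cells, and miR-1236-3p had 2 and 1 against 0 and 0. Both were at or under the floor of 3 reads, the limit that a count of 0 allows, which was 0.574 and 0.544 CPM in the CD44v6-negative and 3.23 and 15.6 CPM in the CD44v6-positive samples, so that no difference was detectable for them at this depth.

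**Figure D1:**
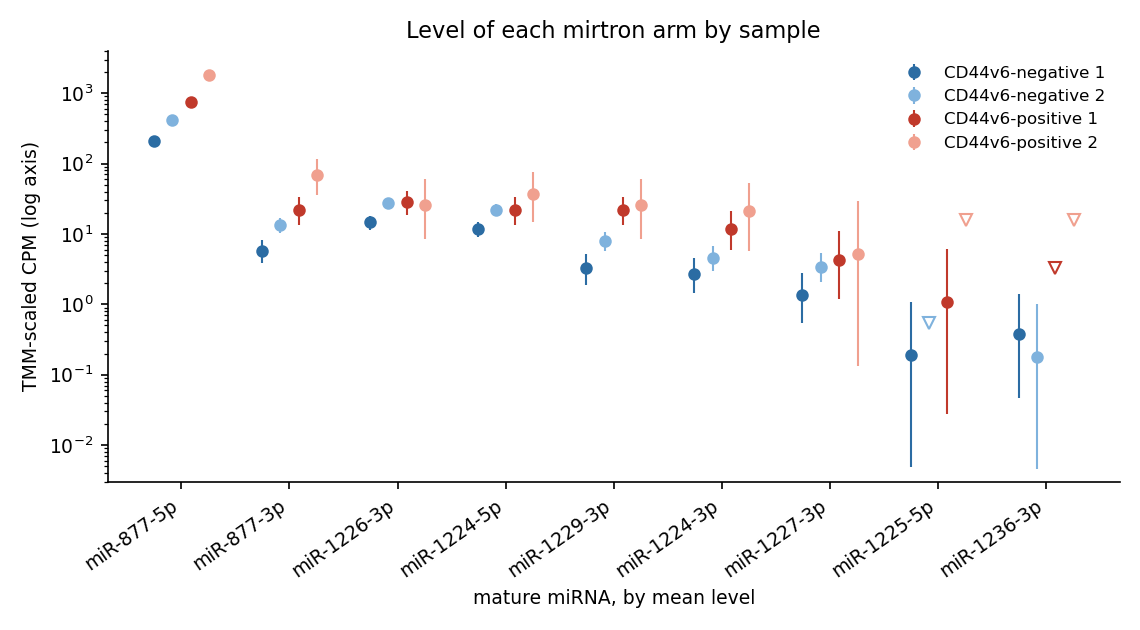
TMM-scaled CPM on a log axis for the 9 mirtron entries, ordered by mean level, in each of the 4 samples. Bars are exact Poisson 95% intervals of the count, and open triangles mark the 3-read floor of samples with 0 reads. For miR-877-5p the CD44v6-positive samples lie at 757 and 1781 CPM, above 209 and 418 CPM in the CD44v6-negative samples.

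CD44v6-positive cells were compared with CD44v6-negative cells with edgeR's quasi-likelihood test on the whole table, in which 570 miRNAs passed the filter on low counts. Of the 9 mirtrons 7 were tested, and 0 of these 7 were called at an adjusted p under 0.05, as were 0 of the 570 (0%). At an unadjusted p under 0.05 there were 4 of the 7 mirtrons, all higher in CD44v6-positive cells, against 30.5% of all tested miRNAs in either direction and 13.0% in that direction. The groups did not overlap in 5 of the 7, all higher in CD44v6-positive cells, against 24.9% of all tested miRNAs higher and 34.6% lower. All 7 had a log2 fold change above 0, as did 44.6% of all tested miRNAs, and their median was 2.01 against -0.31 over all. These counts cannot be read as support, because the filter favours it: all 7 reached its cutoff in both CD44v6-positive samples and only 4 in both CD44v6-negative samples (miR-877-5p, miR-877-3p, miR-1224-5p and miR-1226-3p). DESeq2 called 0 of the 7, against 8.54% of the 562 miRNAs for which it gave an adjusted p.

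For miR-877-5p, the most abundant mirtron, the CD44v6-negative samples gave 1095 and 2306 reads (209 and 418 CPM) and the CD44v6-positive samples 702 and 342 reads (757 and 1781 CPM). Both CD44v6-positive samples were above both CD44v6-negative samples, and the 2 CD44v6-positive samples were far apart. The level of miR-877-5p, like the sums above, rose from sample to sample as depth fell. The log2 fold change was 2.01 ± 0.65 (SE), with an edgeR p of 0.0201 and an adjusted p of 0.123. It passed with total count scaling (2.21, edgeR adjusted p = 0.0286), a setting in which 48 of all 570 tested miRNAs were called. It also passed without CD44v6-negative sample 2 (2.79, edgeR adjusted p = 0.0317) and without CD44v6-positive sample 1 (2.37, edgeR adjusted p = 0.0470), but not without CD44v6-negative sample 1 (1.67) or CD44v6-positive sample 2 (1.53). Each fit without a sample leaves 1 library in a group, which is assumed to vary like the 2 libraries of the other group. Over 11 alternatives, other than fits with a replicate block, the adjusted p from edgeR, DESeq2 or limma-voom ran from 0.0286 to 0.262.

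Its partner arm, miR-877-3p, was far less abundant. It had 30 and 73 reads (5.74 and 13.2 CPM) against 20 and 13 reads (21.6 and 67.7 CPM), and the groups did not overlap. The log2 fold change was 2.12 ± 0.86, with an edgeR adjusted p of 0.154. Without CD44v6-positive sample 2 it was 1.44, and without CD44v6-negative sample 2 it was 3.03. Without CD44v6-positive sample 1 it was 2.70, with the spread again taken from the other group alone.

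The arms of miR-1224 gave unlike values, but the test of arm use given below did not pass (edgeR adjusted p = 0.333). miR-1224-3p reached the cutoff of the filter in both CD44v6-positive samples but in only 1 CD44v6-negative sample. Its difference therefore cannot be read as support. For miR-1224-5p the CD44v6-negative samples gave 61 and 121 reads (11.7 and 21.9 CPM) and the CD44v6-positive samples 20 and 7 reads (21.6 and 36.5 CPM). The groups overlapped, and the log2 fold change was 0.72 ± 0.70 (edgeR adjusted p = 0.535). It was 0.61 without CD44v6-positive sample 2 and 1.42 without CD44v6-negative sample 2. miR-1224-3p had 14 and 25 reads (2.68 and 4.53 CPM) against 11 and 4 reads (11.9 and 20.8 CPM). Its groups did not overlap, with a log2 fold change of 2.06 ± 0.79 and an edgeR adjusted p of 0.144, and 1.96 without CD44v6-positive sample 2. Without CD44v6-negative sample 2 it was 2.66, and its adjusted p from these tools (edgeR, DESeq2, limma-voom) ran from 0.127 to 0.597 over these alternatives.

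Of the 3 hairpins whose 3p entry alone was tested, miR-1229 had the largest log2 fold change, which did not pass the test. miR-1229-3p and miR-1227-3p reached the cutoff of the filter in both CD44v6-positive samples but in only 1 CD44v6-negative sample. Their differences therefore cannot be read as support. miR-1229-3p had 17 and 44 reads (3.25 and 7.97 CPM) in the CD44v6-negative and 20 and 5 reads (21.6 and 26.0 CPM) in the CD44v6-positive samples, with no overlap. Its log2 fold change was 2.05 ± 0.77 and its edgeR adjusted p 0.141 (0.127 to 0.522 over these alternatives). Without CD44v6-positive sample 2 it was 2.20, without CD44v6-negative sample 2 it was 2.99, and without CD44v6-negative sample 1 it was 1.61. miR-1226-3p had 76 and 151 reads (14.5 and 27.4 CPM) against 26 and 5 reads (28.0 and 26.0 CPM), so the groups overlapped. The difference was 0.38 ± 0.66 on the log2 scale (edgeR adjusted p = 0.719). It was 0.67 without CD44v6-positive sample 2, 1.07 without CD44v6-negative sample 2 and 0.063 without CD44v6-negative sample 1. miR-1227-3p had 7 and 19 reads (1.34 and 3.44 CPM) against 4 reads and 1 read (4.31 and 5.21 CPM). Its groups did not overlap in CPM, but the log2 fold change of 0.92 ± 0.96 was smaller than its standard error (edgeR adjusted p = 0.562). Without CD44v6-positive sample 2 it was 1.097.

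**Figure D2:**
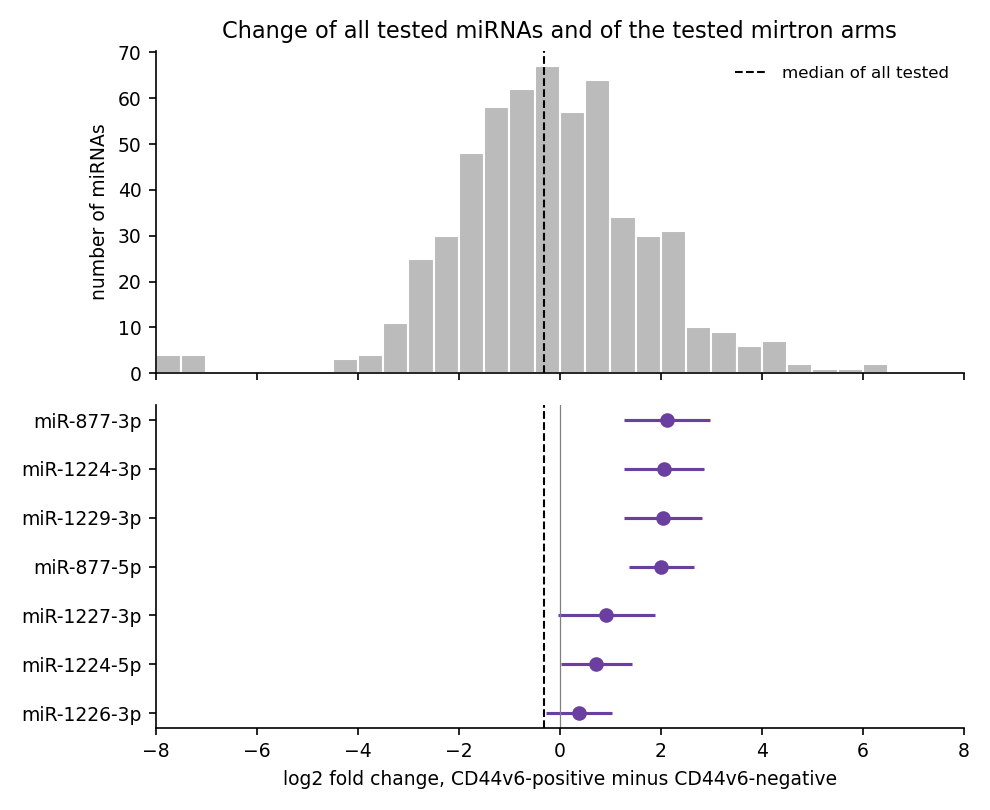
Upper panel: number of miRNAs in steps of log2 fold change, CD44v6-positive minus CD44v6-negative, over the 570 tested. Lower panel: the 7 tested mirtron entries with standard errors, from 0.38 for miR-1226-3p to 2.12 for miR-877-3p. The dashed line is the median of all tested miRNAs, at -0.31.

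The log2 fold changes depend on scaling, since the median of all tested miRNAs moved by 0.34 with upper quartile scaling and by 0.31 with total count scaling. Taken against the median of all tested miRNAs, the median of the 7 mirtrons was 2.32 higher with TMM, 2.28 higher with upper quartile scaling and 2.16 higher with total count scaling. Among those with an unadjusted p under 0.05, 42.5% were higher in CD44v6-positive cells with TMM, 58.4% with upper quartile scaling and 56.6% with total count scaling. The mirtrons among them were all higher and numbered 4 of 7 with TMM, 4 with upper quartile scaling, where 17% of all tested miRNAs were higher at this p, and 2 with total count scaling, where 13.5% were. As above, these medians and counts cannot be read as support, because the filter favours entries that are high in CD44v6-positive cells.

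Mirtrons are rich in G and C, and GC content went along with the change across all miRNAs. The GC content of the 7 tested entries ran from 59.1% for miR-1226-3p to 68.4% for miR-1224-5p, all above the median of 50% of the 499 tested miRNAs with a RefSeq sequence. Over these 499, which share the 4 libraries and are not independent, GC content and log2 fold change had a Spearman rho of 0.501 and a Pearson r of 0.455. When the trend of level with GC content in each sample was entered as an offset, the median of the 7 mirtrons was 1.34, against 0.076 over all tested miRNAs. The limit that the filter sets, given above, holds for this median and for the count below as well. miR-877-3p was then at 1.61, miR-1229-3p at 1.42, and miR-877-5p and miR-1224-3p at 1.34. miR-1227-3p was at 0.32, miR-1226-3p at 0.0027 and miR-1224-5p at -0.07, and 1 of the 7, miR-877-5p, had an unadjusted p under 0.05, against 12.3% of all tested miRNAs higher at this p. Whether GC content or another feature of the entries sets their change was not tested.

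**Figure D3:**
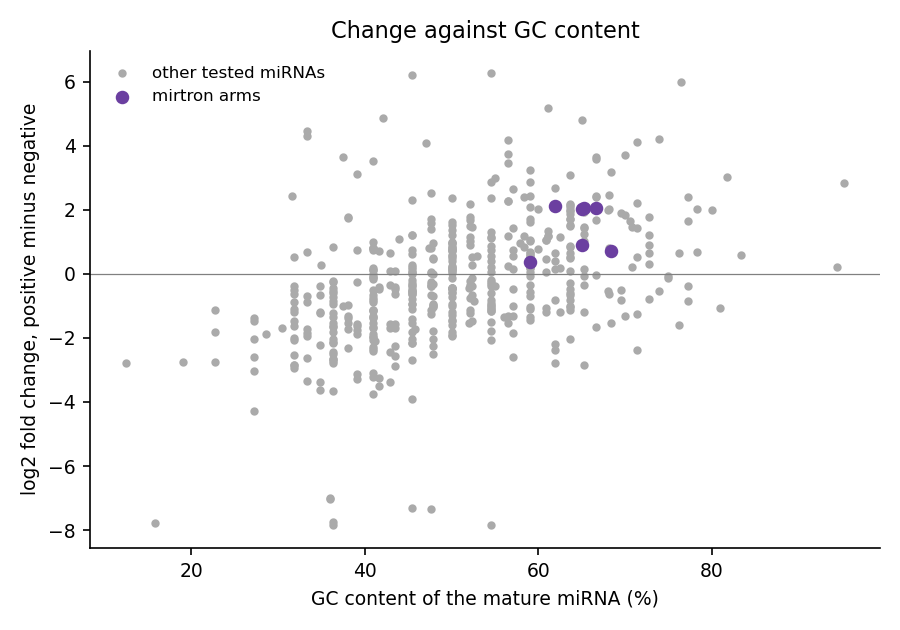
Log2 fold change, CD44v6-positive minus CD44v6-negative, against the GC content of the mature sequence for the 499 tested miRNAs with a RefSeq sequence. The 7 mirtron entries (large points) lie between 59.1% and 68.4% GC, and their log2 fold changes between 0.38 and 2.12.

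Of the 7 hairpins, 4 had enough reads to describe which arm carried them. miR-877 was read almost wholly from its 5p arm, with 97.3% (exact binomial 95% interval 96.2 to 98.2) and 96.9% (96.2 to 97.6) of the reads of both arms in CD44v6-negative cells, and 97.2% (95.8 to 98.3) and 96.3% (93.8 to 98.0) in the CD44v6-positive samples. These 4 shares agree within their counting intervals. miR-1226 was read from its 3p arm. Its other arm, hsa-miR-1226-5p, gave 2 and 8 reads in CD44v6-negative cells, and 0 reads and 1 read in CD44v6-positive cells. The 5p share was 2.56% (0.312 to 8.96) and 5.03% (2.20 to 9.67) in the former, and in the latter 0 of 26 reads, which allows up to 11.5%, and 1 of 6 reads, or 16.7% (0.421 to 64.1). miR-1229 was likewise read from its 3p arm, with 1 read of hsa-miR-1229-5p in CD44v6-negative sample 2, a share of 2.22% (0.0562 to 11.8), and 0 reads in the other samples. For miR-1236 the 5p arm had 1 read in all, for miR-1225 the 3p arm had 0, and the count table held no entry named hsa-miR-1227-5p.

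Of these 4 hairpins, miR-1224 had the most even use of its arms in each sample. The 5p arm took 81.3% (70.7 to 89.4) and 82.9% (75.8 to 88.6) of the reads in CD44v6-negative cells, and 64.5% (45.4 to 80.8) and 63.6% (30.8 to 89.1) in the CD44v6-positive samples. The shares of the 2 groups did not overlap, but their counting intervals did, since the CD44v6-positive samples held only 31 and 11 reads of both arms. Arm use was tested over the 137 hairpin names whose 2 arms both passed the filter, with edgeR's test for unequal change within a hairpin (diffSpliceDGE). The log2 fold change of the 5p arm minus that of the 3p arm was -1.35 for miR-1224 (edgeR adjusted p = 0.333) and -0.11 for miR-877 (edgeR adjusted p = 0.907). Of these 2 hairpins 0 were called, against 1.46% of the 137, and 0 had an unadjusted p under 0.05, against 22.6%. The limit that the filter sets for miR-1224-3p, given above, holds for the arm difference of miR-1224 as well. Leaving out 1 sample in turn, the difference ran from -1.41 to -1.24 for miR-1224 and from -0.32 to 0.086 for miR-877.

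**Figure D4:**
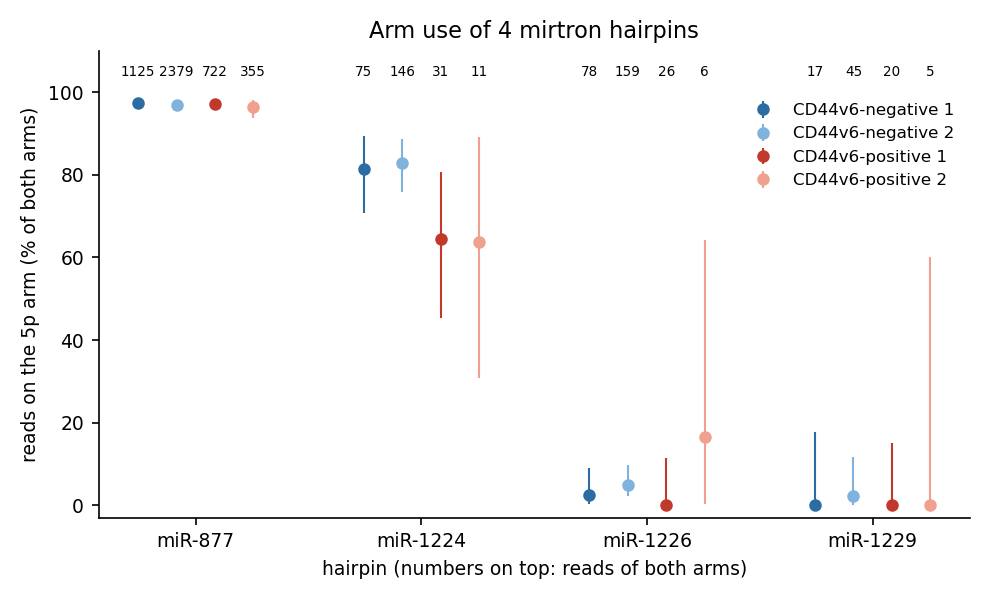
Reads on the 5p arm as a percentage of the reads of both arms, for 4 mirtron hairpins in each sample, with exact binomial 95% intervals (up to 3 reads of the total where the 5p arm had 0). The numbers on top are the reads of both arms. miR-877 stays between 96.3% and 97.3% in the 4 samples, and miR-1224 is at 81.3% and 82.9% in CD44v6-negative and 64.5% and 63.6% in CD44v6-positive samples with wide intervals in the latter.

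A strong preference for one arm is common among miRNAs. Of the hairpin names with 10 or more reads, 63.0% and 59.1% in the CD44v6-negative samples (of 316 and 352) and 64.9% and 69.0% in the CD44v6-positive samples (of 205 and 145) had over 90% or under 10% of their reads on the 5p arm. The 5p arm held most reads in 51.1% to 56.6% of hairpin names per sample.

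Other miRNAs listed as made without Drosha were set beside the mirtrons. Of 9 names fixed as further reported mirtrons, 7 were in the table and 2 were tested, with 0 called. miR-1237-3p had 5 and 14 reads (0.956 and 2.54 CPM) in the CD44v6-negative and 11 and 7 reads (11.9 and 36.5 CPM) in the CD44v6-positive samples, with no overlap. It differed by 3.60 ± 0.98 on the log2 scale (edgeR adjusted p = 0.115). This entry was under the cutoff of the filter in both CD44v6-negative samples and passed only through the CD44v6-positive samples. Its difference therefore cannot be read as support, and 24.9% of all tested miRNAs were likewise higher without overlap. miR-1234-3p had 10 and 17 reads against 7 and 0 reads, and its groups overlapped (log2 fold change 1.09 ± 1.02). The miR-320 family and miR-484, listed as Drosha-independent miRNAs that are not mirtrons, had 6 tested entries and 0 called. The groups did not overlap in 4 of the 6, all higher in CD44v6-positive cells, against the 24.9% of all tested miRNAs given above. miR-320a was at 3185 and 2197 CPM against 6584 and 3890 CPM (0.96 ± 0.49, edgeR adjusted p = 0.229). miR-484 was at 318.5 and 1103 CPM against 260 and 437 CPM, with overlap and a log2 fold change of -1.04 ± 0.72.

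The profile of miR-877-5p over the 4 samples was set against that of each other tested miRNA by the Euclidean distance of log2 CPM centred on its mean. The 5 nearest were miR-1976 (distance 0.299), miR-3177-3p (0.348), miR-744-5p (0.356), miR-1254 (0.380) and miR-92b-5p (0.389). miR-744-5p, the most abundant of these, was at 499 and 743 CPM in the CD44v6-negative and at 1458 and 4129 CPM in the CD44v6-positive samples. With 4 samples this likeness is a description of these libraries.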

How the data were processed

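The deposited table of raw counts, with 1 row for each mature miRNA name and 1 column for each combined identity, was analysed. Bowtie 0.12.9, cutadapt 1.10, DESeq2 and CASAVA 1.8.2 and the build GRCh38 are named, per the submitters' processing notes, without their settings. The treatment of multiply mapped reads is not given in the sources used here. The deposited normalized table holds the same counts divided by a factor per column and was not used.

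edgeR 4.0.16 in R 4.3.3 (estimateDisp, glmQLFit, glmQLFTest) was run on all miRNAs after filterByExpr (minimum count 10, minimum total 15) and TMM scaling, with Benjamini-Hochberg adjustment and a threshold of 0.05. Standard errors were taken as the size of the log2 fold change divided by the root of F. Arm use was tested with diffSpliceDGE. Both were tested on simulated data. Alternatives used DESeq2 1.42.0, limma-voom (limma 3.58.1), other scalings and filters, a replicate block, a GC offset and leaving out each sample. Sequences came from RefSeq (GRCh38.p14), which matched 89.2% of the table entries and all 9 mirtrons, and introns from GENCODE 29.

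The members, the lists and the tests were chosen with earlier results of these data known. Named are all members, the other arms of their hairpins, the 2 most abundant tested entries of each comparison list and the 5 profiles nearest to the most abundant member.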

Additional observations from a re-analysis of the deposited data

How the results depend on the processing

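Over all alternatives the median log2 fold change of the tested mirtrons ran from 1.27 to 2.72, and with 1 sample left out from 1.44 to 2.72. The median of all tested miRNAs ran from -1.55 to 0.13 over all alternatives. Which mirtrons were tested changed with the setting. Wherever a filter was used, its limit, given above, holds for these medians, which cannot be read as support. Of the 7 tested mirtrons, 0 were called in the main analysis and 1 with total count scaling, where 48 of all 570 tested miRNAs were called. With the replicate number as a block (replicate block) 4 were called, beside 228 of all 570. With the replicate block and GC offset together 1 was called (miR-877-5p, edgeR adjusted p = 0.00582), beside 143 of all 570. With the replicate block the edgeR adjusted p was 1.37e-06 for miR-877-5p, 0.00569 for miR-877-3p, 0.0111 for miR-1229-3p and 0.0341 for miR-1224-3p. On 4 libraries the block leaves each miRNA almost no spread of its own, so these values rest mostly on the spread shared across miRNAs. Among all tested miRNAs, 48 were called with total count scaling, 228 with the replicate block, 77 without a filter, 143 with the replicate block and GC offset, 1 with the GC offset, 48 with DESeq2, 4 with limma-voom and 26 to 55 with 1 sample left out. Hairpins called for arm use numbered 2 in the main analysis, 40 with the replicate block, 1 without a filter and 0 to 12 with 1 sample left out. The cause of these changes was not tested. miR-1224-5p changed sign with the GC offset, at -0.072 alone and -0.052 with the replicate block, and the arm difference of miR-877 changed sign without CD44v6-positive sample 2, with a range of -0.32 to 0.086 over the samples left out. The deviations from the group means of the samples that share a replicate number correlated at 0.375 over the tested miRNAs. Within each group, sample 1 was also the deeper library (7880631 against 4592278 reads and 919802 against 154481 reads). Depth and a pairing therefore cannot be told apart here. The labels do not say what a shared number stands for and 2 pairs do not settle it, so the block was kept as an alternative. Depth limits the CD44v6-positive samples most, where 3 reads were 3.23 and 15.6 CPM.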

Other observations

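The annotation holds further hairpins that fill an intron end to end, a set drawn after the values of the mirtrons were known and described without a test. Beyond the 7 hairpins of the report there were 16, with 23 entries in the count table, of which 8 had 0 reads in every sample and 3 were tested. miR-1237-3p, given above with its limit, was the only one of these 3 whose groups did not overlap. Among all tested miRNAs 24.9% were higher and 34.6% lower without overlap. For miR-3620-3p the reads were 14 and 24 in CD44v6-negative cells and 4 and 2 in CD44v6-positive cells (log2 fold change 0.80 ± 0.91), and miR-6765-3p had 8 and 28 reads against 0 reads and 1 read (-1.59 ± 1.78).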
